A study of Mus musculus with 12 samples.

Results

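The comparison described here sets mouse embryonic fibroblasts at day 10 of treatment with the chemical combination called SGCF against the same arm at day 0. Its members were chosen by the sample titles: 2 arrays labelled SGCF day 10 and 2 arrays labelled SGCF day 0, 4 of the 12 arrays of the series. Mouse embryonic fibroblasts (MEFs) are the mesenchymal cells that grow out when embryo tissue is dissociated and cultured, and each array measured their RNA on the Affymetrix Mouse Genome 430A 2.0 design. Per the labels, the cells of every group were grown in DMEM with 10% fetal bovine serum and seeded at 20000 cells per 35 mm dish. A day later they were moved to a medium with 15% serum, GlutaMax, nonessential amino acids, β-mercaptoethanol and 40 ng/ml basic fibroblast growth factor. The label values for both media are the same at day 0 as later. Whether the day 0 cells had already been moved cannot be told from them. The series also holds 2 SGCF arrays at day 5 and 6 arrays of another combination, 6TCF, with 2 each at day 10, day 5 and day 0. SGCF and 6TCF are code names. The sources used here do not give what they contain, the strain, genotype and age of the embryos, or whether a group's replicates were separate embryos or separate dishes. The p-values and standard errors therefore measure only the spread between arrays of the same group, which may be technical. That spread was pooled over all 6 groups of the series, so the 6TCF arrays also enter it. The labels name no culture kept without a combination to day 5 or day 10, so SGCF, time in culture and the change of medium cannot be told apart.

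Several programmes of fibroblasts in culture form the background. Growing fibroblasts pass through the cell cycle, in which replication genes act in S phase and a late set of genes, repressed in resting cells through promoter elements bound by the DREAM complex, drives mitosis. Transforming growth factor beta (TGF-beta) signalling raises contractile proteins and matrix genes in them, while bone morphogenetic proteins (BMPs) and Wnt ligands act through their own target and feedback genes. Fresh preparations from embryos can also hold other cell types, such as macrophages, and an array reads the RNA of all of them together.

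The 4 arrays had deposited medians of 62.3 and 71.0 intensity units at day 10, against 74.7 and 86.2 at day 0, and were brought to a common scale by quantile normalisation. All levels below are log2(intensity + 16), where the added 16 makes the changes of dim genes look smaller than they are, and every change is day 10 minus day 0 on that log2 scale with its standard error. Arrays of the same group correlated at 0.993 at day 10 and 0.985 at day 0, and arrays of different days at 0.930 to 0.940. The actin controls, whose 3′ minus 5′ difference grows as RNA breaks down, stood at 0.46 and 0.47 at day 10, against 0.28 and 0.38 at day 0. The same difference for Gapdh was 0.12 and 0.098 at day 10, against 0.015 and -0.050 at day 0. The part of RNA quality in the results was not tested. The fibroblast label held in both groups: all 12 fibroblast markers were above the level used to filter dim genes (5.25) at day 10 and at day 0. Their summed intensity was 78560 and 78600 at day 10, against 72690 and 64400 at day 0.

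The change over 10 days was broad. Of 10674 genes tested with limma, 4144 (38.8%) were called at an adjusted p under 0.05, 2192 (20.5%) higher and 1952 (18.3%) lower at day 10. At least 2-fold changes were called for 597 genes (5.59%) that rose and 510 genes (4.78%) that fell, and the median change over all genes tested was 0.03. In all 4144 called genes both day 10 arrays lay on the same side of both day 0 arrays, as they also did in 34.2% of all genes in the higher direction and 30.3% in the lower direction. A count of a gene list's members is read below against 20.5% and 18.3%. Without normalisation between arrays the median over all genes was -0.23, and 766 genes were called higher and 2683 lower. The counts of higher members that this setting moves most are given with their lists.

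**Figure D1:**
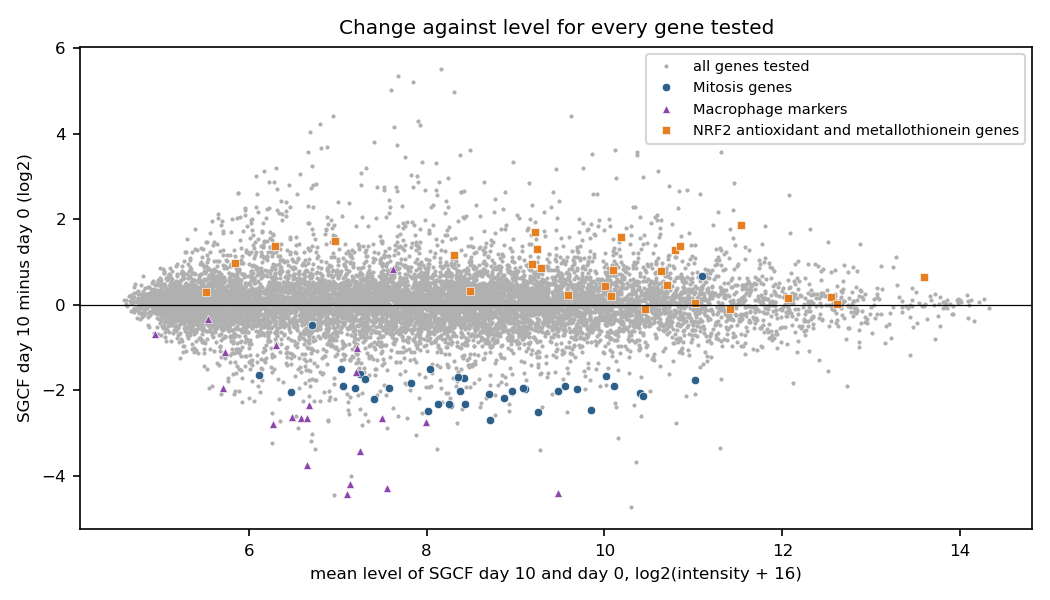
Change from day 0 to day 10 in SGCF (vertical axis, log2) against the mean level of both days (horizontal axis, log2(intensity + 16)) for each gene tested, with mitosis genes, macrophage markers and NRF2 and metallothionein genes marked. Mitosis genes form a band around their median of -1.98, macrophage markers lie lowest, and none of the 27 NRF2 and metallothionein genes was called lower.

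The largest rise was that of Dio2, the deiodinase that activates thyroid hormone. Its level was 10.89 and 10.95 at day 10, against 5.27 and 5.55 at day 0, a change of 5.52 ± 0.17 (adjusted p = 1.55e-09). Car3, a cytosolic carbonic anhydrase, stood at 10.29 and 10.43 at day 10, against 4.75 and 5.24 at day 0 (5.36 ± 0.16). Bmp2, a secreted BMP ligand, stood at 10.56 and 10.34 at day 10, against 5.73 and 4.75 at day 0 (5.21 ± 0.26), with its day 0 arrays farther apart than those of the genes before it. All 3 were near the dim end of the array at day 0 and well above it at day 10. The enzymes among the next rises were Mmp3 (stromelysin, a matrix metalloproteinase), at 12.06 and 11.61 at day 10, against 7.32 and 7.53 at day 0, and Hsd11b1 (which regenerates active glucocorticoid), at 9.998 and 10.11 at day 10, against 5.96 and 5.55 at day 0. Akr1c18, which inactivates progesterone, stood at 9.87 and 10.19 at day 10, against 5.79 and 5.85 at day 0, and Steap4, a metalloreductase, at 9.67 and 9.75 at day 10, against 5.76 and 5.34 at day 0. As for all 12 largest rises, arrays that do not overlap were part of how these 4 genes were chosen. Pnoc, the precursor of the neuropeptide nociceptin, was at 10.37 and 11.22 at day 10, against 5.69 and 5.93 at day 0, and Cadps, which primes dense-core vesicles for release, at 9.28 and 9.02 at day 10, against 4.78 and 4.68 at day 0. Spon1, the matrix protein F-spondin, was at 8.85 and 8.97 at day 10, against 4.63 and 4.75 at day 0. Tnfrsf19, a receptor of the tumour necrosis factor family known as a Wnt target, was at 8.50 and 8.92 at day 10, against 4.68 and 4.66 at day 0. Lratd1 completed the 12 largest rises, at 10.14 and 10.09 at day 10, against 5.10 and 5.08 at day 0 and with a change of 5.03 ± 0.13.

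Among the 12 largest falls, 7 were genes of macrophages. Lyz1 fell to 7.70 and 8.15 at day 10, against 12.43 and 12.89 at day 0, a change of -4.74 ± 0.23 (adjusted p = 3.34e-08), and Lyz2 to 6.88 and 7.66 at day 10, against 11.45 and 11.92 at day 0 (-4.41 ± 0.26). Both encode lysozyme, and because the 2 genes are near-identical copies their probe sets may share signal. C1qa and C1qb, subunits of complement C1q made by macrophages, fell to 4.84 and 4.95 at day 10, against 9.29 and 9.35 at day 0 and to 4.69 and 4.87 at day 10, against 8.37 and 8.70 at day 0. Ctss (cathepsin S) changed by -4.29 ± 0.29, Tyrobp (a signalling adaptor of myeloid cells) by -4.20 ± 0.18 and Mpeg1 (a pore-forming protein of phagocytes) by -3.43 ± 0.17. Because these are bulk samples, fewer cells of a type and less RNA per cell cannot be told apart. The other 5 genes belong to fibroblast matrix and shape. C1qtnf3, a secreted C1q-domain protein, fell to 4.65 and 4.79 at day 10, against 8.69 and 9.69 at day 0, and Fmod (fibromodulin, which binds collagen) to 5.21 and 5.07 at day 10, against 9.48 and 8.84 at day 0. Ccn5, a matricellular protein, fell to 6.51 and 6.35 at day 10, against 9.85 and 9.76 at day 0, and Cdc42ep3, an effector of the GTPase Cdc42 on the actin cytoskeleton, to 7.10 and 8.04 at day 10, against 11.02 and 10.93 at day 0. Prss23, a secreted serine protease, fell to 7.89 and 9.12 at day 10, against 12.25 and 12.14 at day 0, with the widest day 10 pair among the 24 genes. C1qtnf3, C1qa, C1qb, Tyrobp and Fmod were below the filter level of 5.25 in both day 10 arrays, so the size of their fall is limited by the dim end of the scale.

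**Figure D2:**
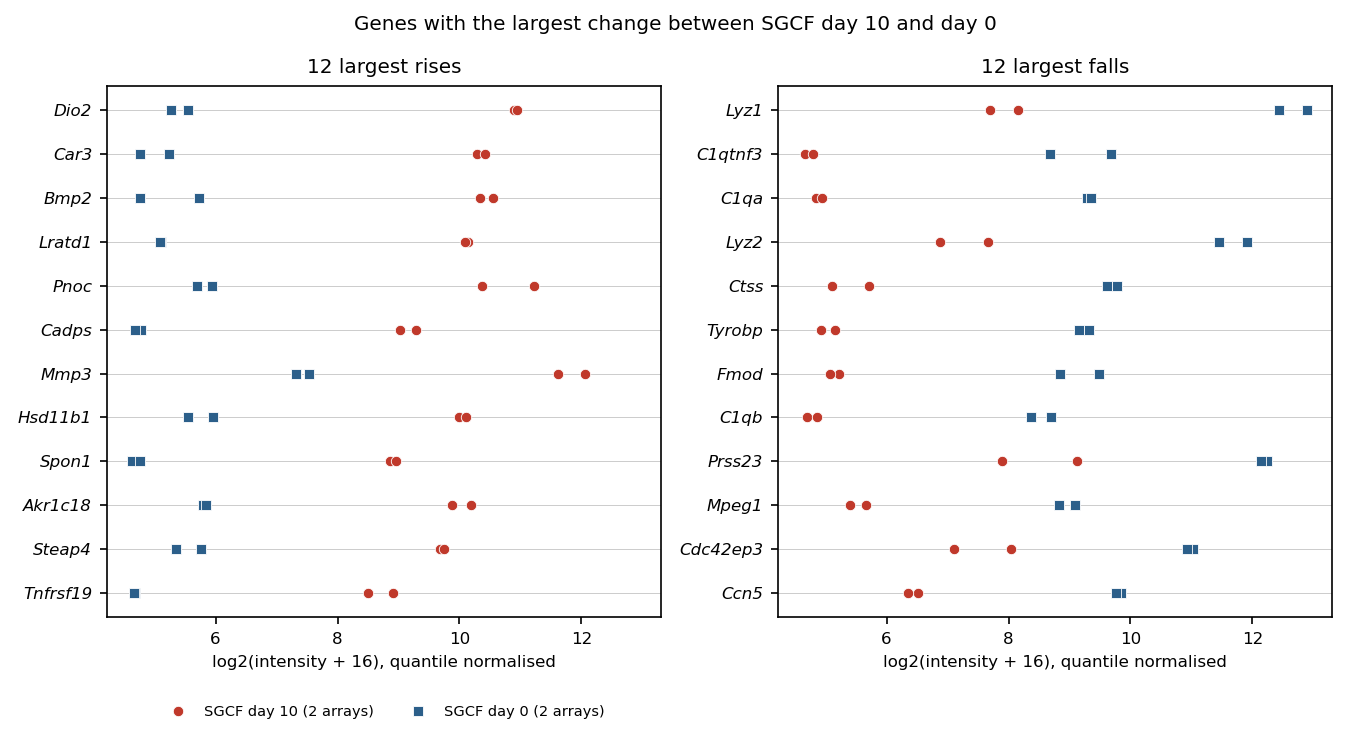
Level of the 12 largest rises (left) and the 12 largest falls (right) in every array, as log2(intensity + 16); circles are the 2 SGCF day 10 arrays and squares the 2 SGCF day 0 arrays. The genes were chosen among those whose 2 groups of arrays do not overlap. Dio2 stood at 10.89 and 10.95 at day 10, against 5.27 and 5.55 at day 0.

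Cell cycle genes fell nearly as a block. Of 37 mitosis genes tested, 36 were lower and 1 higher, with a median change of -1.98, and 35 of them fell at least 2-fold. Mki67, the proliferation antigen Ki-67, fell to 7.92 and 7.41 at day 10, against 10.19 and 9.30 at day 0 (-2.08 ± 0.24, adjusted p = 2.99e-05). Cdk1, the kinase that starts mitosis, fell to 9.32 and 9.05 at day 10, against 10.66 and 11.04 at day 0 (-1.66 ± 0.16), and Top2a, which untangles chromosomes, to 9.35 and 8.98 at day 10, against 11.22 and 10.90 at day 0 (-1.90 ± 0.15). Bub1, a kinase of the spindle checkpoint, fell furthest in the list, to 7.77 and 6.97 at day 10, against 10.02 and 10.10 at day 0 (-2.69 ± 0.21). Birc5 (survivin, a chromosomal passenger protein) fell to 8.32 and 7.67 at day 10, against 10.43 and 10.60 at day 0. The member that rose, named after its values were seen, was Pttg1 (securin, an inhibitor of separase). Pttg1 stood at 11.43 and 11.44 at day 10, against 10.75 and 10.79 at day 0 (0.67 ± 0.11, adjusted p = 0.000511). Its change was 0.26 (adjusted p = 0.381) without normalisation. Across the alternative settings 35 to 36 of the list's members were called lower.

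Replication genes moved the same way by a smaller amount. Of 30 tested, 27 were lower and none was higher, with a median of -1.10, and 16 fell at least 2-fold. Mcm5, a subunit of the replicative helicase, fell to 6.20 and 5.74 at day 10, against 8.20 and 8.31 at day 0 (-2.28 ± 0.15), while its partner Mcm2 fell to 8.71 and 8.46 at day 10, against 9.52 and 9.46 at day 0 (-0.91 ± 0.14). Rrm2, the regulated subunit of ribonucleotide reductase, fell to 9.58 and 9.42 at day 10, against 11.43 and 11.63 at day 0. Pcna, the sliding clamp of DNA polymerase, fell by less, to 11.23 and 11.03 at day 10, against 11.98 and 12.08 at day 0 (-0.90 ± 0.11). Ccne2, an S phase cyclin, changed by -2.28 ± 0.20 and Cdc6, which loads the helicase, by -2.25 ± 0.18.

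The cyclin-dependent kinase inhibitors Cdkn1c, Cdkn2a and Cdkn1a were higher. Their list of 22 tested genes also holds D cyclins, which drive the cycle, and p53 targets, and 12 of it were higher and 1 lower, with a median of 0.51. Without normalisation 7 were higher and 4 lower. Cdkn1c, the inhibitor p57, stood at 12.32 and 12.24 at day 10, against 9.66 and 9.51 at day 0 (2.69 ± 0.11, adjusted p = 1.16e-08). Cdkn2a, which encodes the inhibitors p16 and p19Arf, not told apart here, stood at 12.16 and 12.19 at day 10, against 9.33 and 9.68 at day 0 (2.67 ± 0.13). Cdkn1a, the inhibitor p21, stood at 12.68 and 12.70 at day 10, against 11.91 and 11.42 at day 0 (1.03 ± 0.15). Gadd45a, a growth arrest gene, rose by 2.04, and Trp53inp1, a p53 target, by 1.56. The member that fell, named after its values were seen, was Gadd45b, a stress-induced relative of Gadd45a, at 7.68 and 7.95 at day 10, against 9.19 and 9.01 at day 0 (-1.28 ± 0.15).

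The promoters of 3 of the mitosis genes are shown because that list moved most uniformly. Each is the RefSeq window of 300 bases from 250 before to 50 after the annotated start (build GRCm38.p6), printed 5′ to 3′ on the strand of the gene. Capitals mark matches, on either strand, to TTTGAA, the core of the cell cycle genes homology region, and to CCAAT, the box that often lies upstream of it. The window of Mki67 is chr7:135716330-135716629 (minus strand), that of Cdk1 is chr10:69352863-69353162 (minus strand) and that of Top2a is chr11:99024140-99024439 (minus strand).
Mki67: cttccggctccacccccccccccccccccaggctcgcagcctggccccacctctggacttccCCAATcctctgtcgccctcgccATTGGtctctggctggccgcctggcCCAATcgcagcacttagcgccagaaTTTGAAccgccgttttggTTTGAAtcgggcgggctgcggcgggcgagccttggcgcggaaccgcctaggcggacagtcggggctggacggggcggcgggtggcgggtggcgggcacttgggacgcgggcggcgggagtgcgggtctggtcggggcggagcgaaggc
Cdk1: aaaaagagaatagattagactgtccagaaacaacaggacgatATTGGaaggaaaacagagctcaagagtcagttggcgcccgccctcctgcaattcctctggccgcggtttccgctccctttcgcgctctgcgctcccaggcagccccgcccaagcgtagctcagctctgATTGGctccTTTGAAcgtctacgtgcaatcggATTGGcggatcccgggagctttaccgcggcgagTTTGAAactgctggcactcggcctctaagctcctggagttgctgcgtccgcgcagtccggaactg
Top2a: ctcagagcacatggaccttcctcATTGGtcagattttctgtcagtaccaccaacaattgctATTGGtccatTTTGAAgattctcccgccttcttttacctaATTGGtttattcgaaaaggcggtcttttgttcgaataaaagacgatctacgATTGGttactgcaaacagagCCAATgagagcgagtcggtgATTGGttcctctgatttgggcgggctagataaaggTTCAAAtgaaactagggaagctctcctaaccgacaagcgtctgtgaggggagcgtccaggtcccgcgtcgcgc
Of the 32 mitosis genes with a window, 23 (71.9%) had TTTGAA, against 14.3% of the 8565 tested genes with a window. CCAAT was in 75% of the mitosis genes, against 42.5% of all. Of 34 mitosis windows (a gene can have several), 22 held both, and in none did a TTTGAA match share bases with a CCAAT match. Among replication genes TTTGAA was in 7.69% and CCAAT in 61.5%. Over all tested genes TTTGAA was in 13.9% of those called higher, 18% of those called lower and 13.4% of those not called. For CCAAT these shares were 41.9%, 44.8% and 42.1%. These are matches of letters in a window and were not measured as bound sites.

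Macrophage markers made up the other group that fell as a whole. Of 21 macrophage genes tested, 20 were lower and 1 higher, with a median of -2.65, and 17 fell at least 2-fold. Adgre1, a surface antigen used to identify mouse macrophages, fell to 5.54 and 5.47 at day 10, against 7.82 and 7.88 at day 0 (-2.34 ± 0.12, adjusted p = 3.68e-08). Csf1r, the receptor for macrophage colony-stimulating factor, fell to 6.66 and 6.58 at day 10, against 9.52 and 9.21 at day 0 (-2.74 ± 0.13). Cd68, a lysosomal glycoprotein, fell to 6.23 and 6.60 at day 10, against 8.10 and 7.90 at day 0 (-1.58 ± 0.15). The member that rose, named after its values were seen, was Cd14, a co-receptor for lipopolysaccharide, at 8.05 and 8.02 at day 10, against 7.19 and 7.23 at day 0 (0.82 ± 0.14, and 0.52 with an adjusted p of 0.0573 without normalisation). Over the 12 defining macrophage markers the summed intensity was 670 and 794 at day 10, against 7323 and 8217 at day 0. At day 10, C1qa, C1qb, C1qc, Tyrobp and Mrc1 were below the filter level, while all 12 were above it at day 0. The part that a changing number of macrophages had in other results was not tested.

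Markers of other cell types that such a culture could hold gave low summed intensities beside those of fibroblasts. The 7 endothelial markers summed to 724.2 and 631 at day 10, against 207.3 and 194 at day 0. Of these, Pecam1, Cdh5, Tek and Tie1 were below the filter level on both days, and the other 3 were called higher. Cd34, a sialomucin that fibroblast progenitors also carry, stood at 8.90 and 8.56 at day 10, against 6.45 and 6.45 at day 0 (2.28 ± 0.14, adjusted p = 1.63e-07), and Kdr, a receptor for vascular endothelial growth factor, at 7.21 and 7.35 at day 10, against 6.02 and 5.71 at day 0 (1.42 ± 0.13). Esam, an adhesion molecule named after its values were seen, stood at 6.44 and 6.52 at day 10, against 5.69 and 5.74 at day 0 (0.76 ± 0.18) and was not called without normalisation (0.51, adjusted p = 0.0712). The 7 epithelial markers summed to 451 and 608 at day 10, against 606 and 639 at day 0. The 8 neuronal markers summed to 818 and 894 at day 10, against 536 and 587 at day 0, and the 3 adipocyte markers on the array summed to 816 and 907 at day 10, against 155 and 181 at day 0. Skeletal muscle markers summed to 235 and 322 at day 10, against 170 and 195 at day 0.

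Contractile and TGF-beta target genes were mostly lower. Of 20 tested, 13 were lower and 4 higher, with a median of -0.83. Ccn2 (connective tissue growth factor), a direct TGF-beta and YAP target, fell to 9.65 and 9.60 at day 10, against 13.11 and 12.84 at day 0 (-3.35 ± 0.13, adjusted p = 7.51e-09). Acta2 (smooth muscle actin) fell to 12.95 and 12.75 at day 10, against 14.08 and 13.96 at day 0 (-1.18 ± 0.13), and Tagln (transgelin, an actin binding protein) to 11.80 and 11.75 at day 10, against 13.65 and 13.72 at day 0 (-1.91 ± 0.13). Acta2 nevertheless remained among the bright genes of the array. The ligand Tgfb2 went the other way, at 11.51 and 11.71 at day 10, against 8.66 and 8.63 at day 0 (2.96 ± 0.14), as did Igfbp3, a binding protein of insulin-like growth factors, at 12.37 and 12.37 at day 10, against 9.94 and 9.62 at day 0.

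Matrix genes did not move as a block. Of 18 collagen chains, 6 were higher and 6 lower, with a median of -0.22. Without SGCF day 0 replicate 2 the counts were 3 higher and 8 lower, without normalisation 3 higher and 9 lower, and without SGCF day 0 replicate 1 the median was 0.04. Col1a1, a chain of type I collagen, fell to 10.05 and 10.59 at day 10, against 11.33 and 11.13 at day 0 (-0.91 ± 0.16, adjusted p = 0.000806), and Col8a1, a network-forming chain, to 7.70 and 7.66 at day 10, against 9.88 and 10.46 at day 0 (-2.49 ± 0.16). Col18a1, the basement membrane chain from which endostatin is cut, stood at 11.16 and 10.91 at day 10, against 8.08 and 7.66 at day 0 (3.17 ± 0.17). Among 22 genes for crosslinking, elastic fibres and matricellular proteins, 12 were lower and 4 higher, with a median of -0.52. Lox (lysyl oxidase), which crosslinks collagen and elastin, fell to 10.92 and 11.49 at day 10, against 13.22 and 12.84 at day 0 (-1.82 ± 0.18). Fbln2 and Fbln5, fibulins of elastic fibres, changed by -3.12 ± 0.22 and -2.15 ± 0.14. Another fibulin, Fbln1, named after its value was seen, had the largest rise of the list (1.77). Postn (periostin) fell to 11.78 and 11.76 at day 10, against 13.14 and 12.99 at day 0 (-1.30 ± 0.13), a change that with the day 0 arrays of both arms taken as 1 group was -0.73 (adjusted p = 0.0897). Eln (elastin) stood at 7.19 and 7.44 at day 10, against 7.62 and 7.29 at day 0, and its change did not pass the test (-0.13 ± 0.14, adjusted p = 0.501).

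The small leucine-rich proteoglycans, which bind collagen fibrils and set their spacing, went to opposite ends. Of 9 tested, 3 were higher and 5 lower. Dcn (decorin) stood at 13.37 and 13.36 at day 10, against 10.78 and 10.81 at day 0 (2.57 ± 0.13, adjusted p = 3.28e-08), and Lum (lumican) at 13.08 and 13.13 at day 10, against 9.71 and 9.33 at day 0 (3.58 ± 0.15). Kera (keratocan) stood at 8.58 and 8.69 at day 10, against 5.01 and 4.95 at day 0 (3.66 ± 0.15). Fmod fell as given above, and Aspn (asporin) fell to 7.64 and 7.90 at day 10, against 9.77 and 10.41 at day 0 (-2.32 ± 0.38). Dcn, Lum and Kera, the 3 that rose, all lie on mouse chromosome 10.

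Matrix proteases were more often higher than lower. Of 16 metalloproteinases and inhibitors tested, 8 were higher and 2 lower, with a median of 0.60. Mmp3 had been higher at day 5, at 12.83 and 12.80, and fell to day 10 (-0.98 ± 0.16 from day 5, adjusted p = 0.000951). Beside Mmp3, Mmp2 (gelatinase A) stood at 12.59 and 12.52 at day 10, against 10.70 and 9.97 at day 0 (2.22 ± 0.21, adjusted p = 5.9e-06) and Mmp19 at 9.04 and 8.73 at day 10, against 6.58 and 6.56 at day 0 (2.32 ± 0.14). Timp3, an inhibitor of these enzymes that is anchored in the matrix, fell to 9.80 and 9.90 at day 10, against 11.11 and 10.73 at day 0 (-1.07 ± 0.15).

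BMP genes rose with Bmp2. Of 13 ligands and SMAD feedback genes tested, 10 were higher and 2 lower, with a median of 0.83. The lowest change, named after its value was seen, was that of Bambi (-0.62). Bmp2 had been higher at day 5, at 11.59 and 11.99, and fell to day 10 (-1.34 ± 0.26 from day 5, adjusted p = 0.00269). The BMP target Id1, an inhibitor of basic helix-loop-helix factors, stood at 11.58 and 11.38 at day 10, against 9.57 and 9.56 at day 0 (1.91 ± 0.12, adjusted p = 2.93e-07), and Id3 at 12.30 and 12.25 at day 10, against 11.08 and 10.88 at day 0 (1.29 ± 0.11). Secreted BMP antagonists rose too: Grem1 (gremlin) stood at 11.95 and 11.62 at day 10, against 10.23 and 9.99 at day 0 (1.68 ± 0.15) and Nbl1 at 9.12 and 9.39 at day 10, against 7.94 and 7.90 at day 0 (1.33 ± 0.13). In the Wnt/beta-catenin target list 10 of 19 were higher and 5 lower, with a median of 0.39. At least 2-fold changes were called for 8 that rose and 3 that fell. Its largest fall was that of Lgr5 (-2.46), and Dkk1 was also called lower, both named after their values were seen. Axin2, a feedback inhibitor and standard target of the pathway, stood at 8.72 and 8.89 at day 10, against 5.76 and 5.67 at day 0 (3.09 ± 0.13, adjusted p = 1.25e-08). Apcdd1, a membrane-bound Wnt inhibitor, stood at 12.23 and 11.999 at day 10, against 8.48 and 8.74 at day 0 (3.50 ± 0.22). The transcription factor Lef1 was dim in all 4 arrays, at 4.96 and 4.90 at day 10, against 5.05 and 4.64 at day 0 (0.08 ± 0.17, adjusted p = 0.743).

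Other signalling lists were mixed. Of 21 genes of cyclic AMP synthesis, breakdown and CREB response, 10 were higher (6 without normalisation) and 1 lower, with a median of 0.32 (-0.03 without normalisation). Gem, a GTPase of the RGK family, stood at 8.94 and 9.13 at day 10, against 6.12 and 6.45 at day 0 (2.75 ± 0.21, adjusted p = 9.13e-07). Ppargc1a, a coactivator of mitochondrial genes, stood at 6.68 and 7.69 at day 10, against 4.65 and 4.49 at day 0 (2.61 ± 0.24), and its day 10 arrays lay far apart. Crem, a cyclic AMP response factor, rose by 1.36, while Nr4a1, an orphan nuclear receptor, stood at 8.02 and 8.29 at day 10, against 8.47 and 8.35 at day 0 and did not pass the test (-0.25 ± 0.14, adjusted p = 0.168). It was called lower without normalisation (-0.56, adjusted p = 0.0434) and with the day 0 arrays of both arms as 1 group (-0.62, adjusted p = 0.0476). Among 21 immediate early and ERK feedback genes 7 were higher (4 without normalisation) and 8 lower. Dusp6, the phosphatase that turns off ERK, stood at 10.64 and 10.09 at day 10, against 9.37 and 9.33 at day 0 (1.02 ± 0.20, adjusted p = 0.00178), and the growth factor Ereg (epiregulin) at 9.72 and 9.49 at day 10, against 7.86 and 7.99 at day 0 (1.68 ± 0.15). Hbegf, a related growth factor, fell to 7.44 and 7.31 at day 10, against 9.45 and 9.11 at day 0 (-1.90 ± 0.24). Spry2, an inhibitor of receptor tyrosine kinase signalling, stood at 9.48 and 9.36 at day 10, against 8.86 and 8.66 at day 0 (0.66 ± 0.13), but its change was 0.30 (adjusted p = 0.289) without normalisation and 0.18 (adjusted p = 0.665) with the day 0 arrays of both arms as 1 group.

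Insulin-like growth factor genes were mixed. Of 14 tested, 7 were higher and 5 lower. The binding protein Igfbp4 stood at 12.02 and 12.20 at day 10, against 9.51 and 9.16 at day 0 (2.77 ± 0.15, adjusted p = 7.96e-08). The ligand Igf2 stood at 13.23 and 13.23 at day 10, against 12.73 and 11.98 at day 0 (0.87 ± 0.20), and without SGCF day 0 replicate 2 its change was 0.50 (adjusted p = 0.0293). The ligand Igf1 stood at 9.28 and 9.37 at day 10, against 8.75 and 8.40 at day 0 (0.75 ± 0.15, adjusted p = 0.00178). That call was lost without normalisation (0.40, adjusted p = 0.155) and with the mean of the gene's probe sets (0.080, adjusted p = 0.561).

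Inflammatory genes rose in part. Among 14 complement and acute-phase genes 10 were higher and 2 lower, all 10 at least 2-fold, with a median of 2.08. Beside Steap4, C1s1, a protease of the C1 complex, stood at 9.93 and 10.32 at day 10, against 6.76 and 6.50 at day 0 (3.49 ± 0.16, adjusted p = 1.79e-08). Saa3, an acute-phase apolipoprotein, stood at 11.01 and 11.71 at day 10, against 7.86 and 8.45 at day 0 (3.21 ± 0.25). Of 30 chemokines and inflammatory secreted genes, 12 were higher and 6 lower, with a median of -0.06. Icam1, an adhesion molecule for leukocytes, stood at 9.48 and 9.51 at day 10, against 6.05 and 6.01 at day 0 (3.46 ± 0.14, adjusted p = 7.51e-09). Cxcl1, a neutrophil chemokine, stood at 9.13 and 9.23 at day 10, against 8.09 and 8.46 at day 0 (0.91 ± 0.20, adjusted p = 0.00384) and was not called without normalisation (0.55, adjusted p = 0.0674). Il6, a cytokine of acute inflammation, stood at 6.88 and 7.41 at day 10, against 6.49 and 7.08 at day 0 and did not pass the test (0.36 ± 0.22, adjusted p = 0.215), but was called without SGCF day 0 replicate 2 (0.65, adjusted p = 0.0455). Ccl2, a monocyte chemokine, stood at 10.25 and 10.07 at day 10, against 10.47 and 10.64 at day 0 and did not pass it either (-0.40 ± 0.16, adjusted p = 0.0699). It was called lower with median scaling (-0.54, adjusted p = 0.0296), without normalisation (-0.80, adjusted p = 0.00372) and with 64 added (-0.38, adjusted p = 0.0436), and was at 0.32 with the day 0 arrays of both arms as 1 group. The largest fall of the list, named after its values were seen, was that of Cxcl14, a chemokine of skin and other epithelia, to 5.71 and 6.04 at day 10, against 8.53 and 8.84 at day 0 (-2.81 ± 0.17). The interferon-stimulated list had 8 of 25 higher and 7 lower, and 1 was lower both without SGCF day 10 replicate 1 and with the day 0 arrays of both arms as 1 group. The interferon-inducible GTPases Iigp1 and Gbp2 stood at 8.31 and 8.56 at day 10, against 6.69 and 6.15 at day 0 (2.02 ± 0.18), and at 8.20 and 8.56 at day 10, against 6.90 and 7.30 at day 0 (1.28 ± 0.25).

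Amino acid synthesis genes fell. Of 35 serine synthesis genes and ATF4 targets, 25 were lower and 4 higher, with a median of -0.79, and 15 fell at least 2-fold. ATF4 is the transcription factor of the amino acid and integrated stress response. Phgdh, which catalyses the first step of serine synthesis, fell to 9.36 and 9.48 at day 10, against 12.17 and 12.20 at day 0 (-2.77 ± 0.13, adjusted p = 2.08e-08), and Psat1, the next enzyme, to 9.27 and 9.03 at day 10, against 11.44 and 11.56 at day 0 (-2.35 ± 0.12). Psph, the last enzyme of the pathway, changed by -1.73 ± 0.14, and the mitochondrial folate enzyme Mthfd2 by -2.44 ± 0.13. Asns (asparagine synthetase) fell to 8.75 and 9.13 at day 10, against 11.40 and 11.25 at day 0 (-2.38 ± 0.15), and Chac1, which degrades glutathione, to 6.28 and 6.58 at day 10, against 7.998 and 8.25 at day 0 (-1.69 ± 0.14).

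The windows of Asns at chr6:7693160-7693459 (minus strand) and Chac1 at chr2:119350992-119351291 (plus strand) are shown as those of 2 ATF4 targets, from the same RefSeq build. Capitals mark the match, on either strand, to TGATGNAA, the composite element of ATF4 with a C/EBP factor.
Asns: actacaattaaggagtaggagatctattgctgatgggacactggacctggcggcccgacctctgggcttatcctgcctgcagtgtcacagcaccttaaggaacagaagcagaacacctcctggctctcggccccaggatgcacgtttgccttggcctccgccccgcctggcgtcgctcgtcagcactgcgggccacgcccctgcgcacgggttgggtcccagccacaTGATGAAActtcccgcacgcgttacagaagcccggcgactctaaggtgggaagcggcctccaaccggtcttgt
Chac1: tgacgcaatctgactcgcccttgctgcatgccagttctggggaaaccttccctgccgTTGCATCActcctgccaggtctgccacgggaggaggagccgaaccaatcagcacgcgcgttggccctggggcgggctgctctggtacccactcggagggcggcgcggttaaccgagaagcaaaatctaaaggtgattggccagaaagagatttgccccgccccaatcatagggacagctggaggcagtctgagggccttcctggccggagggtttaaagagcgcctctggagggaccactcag
That element was in 10 of the 27 list genes with a window (37%), against 2.8% of the 8565 genes. Of these 10, Slc7a11 and Vldlr were called higher and the rest lower. The windows of Phgdh, Psat1, Psph and Mthfd2, which also fell, did not hold it. Over all tested genes it was in 3.37% of those called higher and in 3.37% of those called lower.

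Sterol genes were lower by less. Of 19 cholesterol synthesis genes, 14 were lower and none was higher, with a median of -0.44. In a fit of only the 4 arrays compared, 8 were lower. Hmgcs1, which makes the precursor of mevalonate, fell to 10.88 and 10.89 at day 10, against 11.84 and 11.64 at day 0 (-0.85 ± 0.12, adjusted p = 0.000186). Fdps, which makes farnesyl diphosphate, changed by -1.30 ± 0.14, and Idi1, the isomerase before it, by -1.22 ± 0.24. All 15 of these genes with a promoter window held CCAAT, while the sterol regulatory element TCACNCCAC was in 1 of the 15, Hmgcs1, against 1.54% of all genes. Endoplasmic reticulum chaperones had 2 of 24 higher and 8 lower, with 5 lower without SGCF day 10 replicate 1 and 2 with the day 0 arrays of both arms as 1 group.

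Antioxidant and metal-binding genes rose in part. Of 27 NRF2 targets and metallothioneins, 16 were higher and none was lower, with a median of 0.79. The other 11 were not called. They include the NRF2 targets Nqo1, Gclm and Txnrd1, named after their calls were seen, and Txnrd1 had the lowest change of the list (-0.10). Mt1, a metallothionein that binds zinc and copper, stood at 12.49 and 12.44 at day 10, against 10.75 and 10.46 at day 0 (1.85 ± 0.12, adjusted p = 3.82e-07), and Mt2 at 10.93 and 11.01 at day 10, against 9.37 and 9.42 at day 0 (1.58 ± 0.12). Hmox1 (heme oxygenase 1) stood at 9.98 and 10.17 at day 10, against 8.60 and 8.15 at day 0 (1.70 ± 0.16), and Aox1, an aldehyde oxidase, stood at 7.70 and 7.75 at day 10, against 6.20 and 6.24 at day 0. The antioxidant response element TGACNNNGC was in 26.1% of the 23 list genes with a window, against 16.8% of all. Of the list genes that held it, Mt2 and Srxn1 were called higher, while Gclm, Txnrd1, Gsta3 and Pgd were not called. Over all tested genes it was in 17.1% of those called higher and in 16.4% of those called lower.

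Retinoid and fat genes rose in part. Of 18 retinoid genes 8 were higher (3 without normalisation) and none was lower. Rarb, a retinoic acid receptor that is itself a target of retinoic acid, stood at 7.88 and 7.83 at day 10, against 5.01 and 5.11 at day 0 (2.79 ± 0.12, adjusted p = 1.38e-08). Rbp4, the carrier of retinol, stood at 8.07 and 7.68 at day 10, against 5.18 and 5.98 at day 0 (2.29 ± 0.23), and Crabp1, a binding protein inside the cell, at 13.65 and 13.48 at day 10, against 12.83 and 12.51 at day 0 (0.90 ± 0.14). Among 18 adipocyte lipid genes 9 were higher and 2 lower. Fabp4, a fatty acid binding protein of adipocytes, stood at 9.58 and 9.28 at day 10, against 6.81 and 7.21 at day 0 (2.42 ± 0.16, adjusted p = 4.15e-07). The adipocyte hormone Adipoq (adiponectin) stood at 6.36 and 6.97 at day 10, against 4.55 and 4.73 at day 0 (2.03 ± 0.18), and the early regulator Cebpb at 11.92 and 11.88 at day 10, against 10.83 and 10.38 at day 0. Pparg, the master regulator of the lineage, stood at 6.73 and 6.85 at day 10, against 6.07 and 5.77 at day 0 (0.86 ± 0.22, adjusted p = 0.0094). Its call was lost without SGCF day 0 replicate 2 (0.71, adjusted p = 0.0696), without SGCF day 10 replicate 2 (0.80, adjusted p = 0.0555) and with the day 0 arrays of both arms as 1 group (0.51, adjusted p = 0.168). Cd36, a fatty acid transporter that macrophages also carry, fell to 5.35 and 5.59 at day 10, against 7.01 and 7.56 at day 0.

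Lists of other lineages held scattered changes. Of 29 genes of the neuronal cytoskeleton, synapse and growth cone, 11 were higher and 5 lower, with a median of 0.17. Gria1, a subunit of AMPA glutamate receptors, stood at 8.62 and 8.84 at day 10, against 5.05 and 5.01 at day 0 (3.70 ± 0.15, adjusted p = 9.52e-09), and Gap43, a growth cone protein, at 11.41 and 11.004 at day 10, against 8.67 and 8.58 at day 0 (2.58 ± 0.15). Snap25, a synaptic SNARE, rose by 1.77, while Tubb3, a neuronal tubulin, fell to 6.26 and 5.47 at day 10, against 7.57 and 7.68 at day 0 (-1.76 ± 0.24). Of 13 proneural and neuronal transcription factors 2 were higher and 1 lower. Neurod1 was dim in all 4 arrays, at 4.88 and 4.79 at day 10, against 4.68 and 4.73 at day 0 (adjusted p = 0.598), and Isl1, a factor of motor neurons and of cardiac progenitors, stood at 7.55 and 7.56 at day 10, against 6.30 and 6.39 at day 0 (1.21 ± 0.17). In the neural stem and crest list, 6 of 23 were higher and 5 lower. Sox2 stood at 5.75 and 5.81 at day 10, against 4.93 and 4.87 at day 0 (0.88 ± 0.22, adjusted p = 0.00737) and was not called with 64 added in place of 16 (0.41, adjusted p = 0.0594). Hes1, a Notch target, fell to 6.92 and 7.14 at day 10, against 9.03 and 8.86 at day 0 (-1.92 ± 0.13).

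Among mesenchymal transcription factors, 6 of 26 were higher and 6 lower, and without SGCF day 10 replicate 2, 3 were lower. Twist1 rose by 1.36 and Meox2 by 1.24, while Foxp1 fell by 1.44. In the Hox list 4 of 24 were higher and 8 lower, with 4 lower without SGCF day 10 replicate 1 and 5 without SGCF day 10 replicate 2. Hoxa5 stood at 8.55 and 8.56 at day 10, against 7.89 and 7.82 at day 0 (0.70 ± 0.11), a call that was lost without normalisation (0.36, adjusted p = 0.18) and with the day 0 arrays of both arms as 1 group (0.25, adjusted p = 0.49). Hoxc9 fell by 1.05. Of 21 epithelial genes 2 were higher and 7 lower. Pkp2, a plaque protein of desmosomes, fell to 6.36 and 6.40 at day 10, against 9.14 and 8.81 at day 0 (-2.59 ± 0.14, adjusted p = 6.54e-08), and the keratin Krt19 to 6.44 and 6.54 at day 10, against 7.84 and 7.73 at day 0 (-1.30 ± 0.14). Epcam was dim, at 5.26 and 5.07 at day 10, against 5.18 and 5.51 at day 0 (adjusted p = 0.551). Krt8 stood at 5.98 and 6.79 at day 10, against 6.62 and 6.67 at day 0 (adjusted p = 0.478). Krt18 stood at 8.04 and 8.56 at day 10, against 7.81 and 8.18 at day 0 (adjusted p = 0.207) and was called without SGCF day 10 replicate 1 (0.57, adjusted p = 0.0398).

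Of 14 mesothelial genes 6 were higher and 3 lower, with a median of 0.42 that was -0.24 with the day 0 arrays of both arms as 1 group. Msln (mesothelin) fell to 4.80 and 4.87 at day 10, against 6.76 and 6.96 at day 0 (-2.03 ± 0.14, adjusted p = 5.75e-07). Wt1, a transcription factor of mesothelium and kidney, stood at 6.34 and 6.50 at day 10, against 5.73 and 5.14 at day 0 (0.98 ± 0.18, adjusted p = 0.00124), and with the day 0 arrays of both arms as 1 group its change was 0.24 (adjusted p = 0.688). Among 12 endoderm and liver genes 4 were higher and 1 lower. Alb (albumin) stood at 8.24 and 8.68 at day 10, against 4.75 and 5.01 at day 0 (3.57 ± 0.23, adjusted p = 2.54e-07), and Gata6, a factor of endoderm and heart, at 9.22 and 9.10 at day 10, against 7.50 and 7.18 at day 0 (1.82 ± 0.13). In the cardiac list 4 of 22 were higher and 2 lower. Tnnt2, cardiac troponin T, fell to 5.71 and 5.25 at day 10, against 7.07 and 7.04 at day 0 (-1.58 ± 0.36, adjusted p = 0.00463), and Nkx2-5 did not pass the test, at 6.10 and 6.15 at day 10, against 5.96 and 6.52 at day 0 (adjusted p = 0.759). Of 20 skeletal muscle genes 2 were higher and 2 lower. Acta1, skeletal actin, fell to 7.98 and 7.43 at day 10, against 10.06 and 9.58 at day 0 (-2.12 ± 0.38), and Myod1 stood at 5.54 and 5.62 at day 10, against 5.66 and 5.61 at day 0 (adjusted p = 0.883).

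Ribosomal protein genes moved little, while the other lists of this paragraph held more called members. Of 33 cytosolic ribosomal protein genes 1 was higher and 1 lower, and of 41 respiratory chain genes 6 were higher and 6 lower. The respiratory chain counts were 2 higher and 9 lower with median scaling, 1 higher and 9 lower without normalisation, 2 higher and 3 lower without SGCF day 10 replicate 1, and 2 and 2 without SGCF day 10 replicate 2. Glycolysis and hypoxia genes had 7 of 28 higher and 5 lower (1 higher and 6 lower without normalisation). Eno2, an enolase isoform, rose by 1.57. Slc2a1, the glucose transporter GLUT1, stood at 10.99 and 11.12 at day 10, against 10.53 and 10.23 at day 0 (0.68 ± 0.15, adjusted p = 0.00368) and was not called without normalisation (0.26, adjusted p = 0.377). Of 36 semaphorin, ephrin, netrin and slit genes 10 were higher and 2 lower (5 each without normalisation), led by Sema5a, a guidance receptor and ligand, with 2.05 ± 0.19. Ntn1 (netrin-1) stood at 8.51 and 8.06 at day 10, against 7.48 and 6.54 at day 0 (1.27 ± 0.26), and without SGCF day 0 replicate 2 its change was 0.80 (adjusted p = 0.0143). Of 24 ion channel subunits 8 were higher (5 without SGCF day 10 replicate 2 and 3 without normalisation) and 4 lower, and Scn3b, an auxiliary subunit of sodium channels, rose by 2.70.

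**Figure D3:**
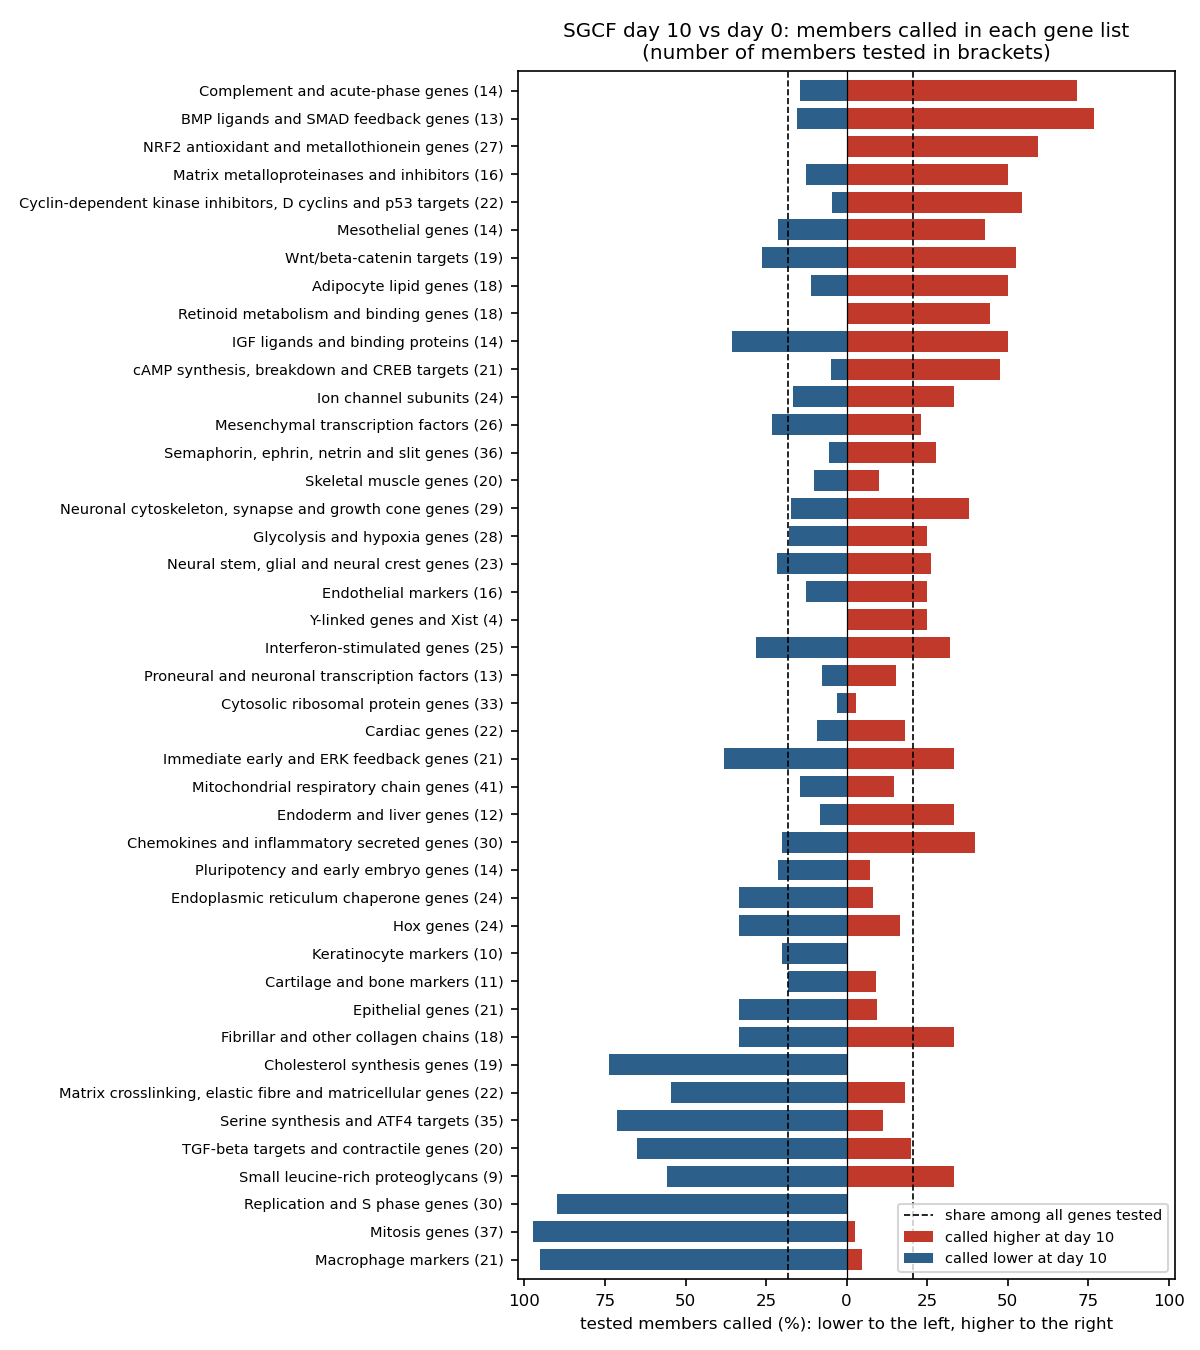
Share of each gene list's tested members (percent) called higher (red, to the right) and lower (blue, to the left) at SGCF day 10, in the order of their median change; the number tested stands in brackets and dashed lines mark 20.5% and 18.3% of all genes tested. Macrophage, mitosis and replication lists reach farthest to the left, with 20 of 21, 36 of 37 and 27 of 30 members lower.

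The day 5 arrays show when the changes came. Between day 5 and day 10, 2318 genes (21.7%) were called, 1254 (11.7%) higher and 1064 (9.97%) lower at day 10. Between day 0 and day 5, 2727 (25.5%) were called, 1370 (12.8%) higher and 1357 (12.7%) lower at day 5. The comparisons share the day 5 arrays with each other and the day 10 or day 0 arrays with the 10-day comparison, so their values are given side by side and not tested against one another. Mitosis genes had 32 of 37 lower by day 5 (median -0.64) and 36 of 37 lower from day 5 to day 10 (median -1.22). Replication genes had 9 of 30 lower by day 5 and 26 of 30 lower from day 5 to day 10. Macrophage markers had 19 of 21 lower by day 5 (median -2.44), and 2 of 21 lower from day 5 to day 10 (median -0.13).

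Matrix lists turned. Of 18 collagen chains 10 were lower by day 5, while from day 5 to day 10 none was lower and 8 were higher. TGF-beta and contractile genes had 14 of 20 lower by day 5 and 9 higher and none lower from day 5 to day 10. Cholesterol synthesis genes had 15 of 19 lower by day 5 and 9 higher and none lower from day 5 to day 10. Complement and acute-phase genes had 3 of 14 higher by day 5 and 11 higher from day 5 to day 10. Interferon-stimulated genes had 13 of 25 lower by day 5 and 11 higher from day 5 to day 10. ERK feedback genes had 11 of 21 higher by day 5 and 11 lower from day 5 to day 10. Neuronal cytoskeleton and synapse genes had 9 of 29 higher by day 5 and 9 lower from day 5 to day 10.

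Single genes took 3 courses. Hsd11b1 rose mainly after day 5, with 5.96 and 5.55 at day 0, 6.42 and 6.21 at day 5 and 9.998 and 10.11 at day 10. Its change was 0.57 (adjusted p = 0.0221) from day 0 to day 5 and 3.74 ± 0.16 (adjusted p = 5.44e-08) from day 5 to day 10. C1s1, with 6.76 and 6.50 at day 0, 6.39 and 6.33 at day 5 and 9.93 and 10.32 at day 10, and Kera, with 5.01 and 4.95 at day 0, 5.10 and 5.23 at day 5 and 8.58 and 8.69 at day 10, did not pass the test from day 0 to day 5 (adjusted p = 0.243 and 0.42) and then rose (3.76 ± 0.16 and 3.47 ± 0.15 from day 5 to day 10). Ogn (osteoglycin, a small leucine-rich proteoglycan) dipped, with 10.92 and 10.95 at day 0, 7.57 and 7.78 at day 5 and 11.15 and 11.89 at day 10 (3.85 ± 0.24 from day 5 to day 10). Its change over the 10 days did not pass the test (0.59 ± 0.24, adjusted p = 0.0665), but did without SGCF day 10 replicate 1 (0.96, adjusted p = 0.0089), with 64 added in place of 16 (0.58, adjusted p = 0.0451) and with the day 0 arrays of both arms as 1 group (0.61, adjusted p = 0.0377). Igf1 had 8.75 and 8.40 at day 0, 5.98 and 5.64 at day 5 and 9.28 and 9.37 at day 10. Egfl6, a secreted protein with EGF repeats, had 6.86 and 6.76 at day 0, 4.66 and 5.28 at day 5 and 8.39 and 9.10 at day 10. Both dipped at day 5 and then rose. The 10-day change of Igf1 was not called by limma without normalisation (0.40, adjusted p = 0.155) or with the mean of its probe sets (0.080, adjusted p = 0.561). Egfl6 changed by 1.93 ± 0.27 over the 10 days (adjusted p = 0.000156).

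Neuronal genes led the largest falls from day 5 to day 10. Nptx1, a pentraxin of synapses, had 5.38 and 5.34 at day 0, 10.49 and 10.54 at day 5 and 7.22 and 5.95 at day 10, a change of -3.93 ± 0.32 (adjusted p = 7.09e-06). Nefl, the light neurofilament, had 5.01 and 4.73 at day 0, 9.85 and 10.02 at day 5 and 7.03 and 6.06 at day 10 (-3.39 ± 0.39). Both were at their peak at day 5, and their day 10 arrays lay far apart. Their changes over the 10 days, 1.22 ± 0.32 and 1.68 ± 0.39, lost their calls without SGCF day 10 replicate 1 (0.58, adjusted p = 0.0854, for Nptx1 and 1.19, adjusted p = 0.0589, for Nefl). That of Nptx1 was 1.86 without SGCF day 10 replicate 2 and 0.74 (adjusted p = 0.146) with the day 0 arrays of both arms as 1 group. Chrna1, a subunit of the muscle acetylcholine receptor, had 5.38 and 5.48 at day 0, 8.82 and 8.77 at day 5 and 6.20 and 5.67 at day 10, and its 10-day change did not pass the test (0.50 ± 0.26, adjusted p = 0.148). Lrrn1, a leucine-rich repeat membrane protein, had 5.62 and 5.77 at day 0, 9.68 and 9.89 at day 5 and 7.55 and 6.92 at day 10, and Gch1, which starts the synthesis of tetrahydrobiopterin, had 6.64 and 7.05 at day 0, 11.20 and 10.92 at day 5 and 8.97 and 8.29 at day 10. Both remained higher at day 10 than at day 0, by 1.54 ± 0.23 and 1.79 ± 0.28. Prkg2, a cyclic GMP-dependent kinase, did not pass the test to day 5 (adjusted p = 0.269) and then fell, with 9.03 and 8.98 at day 0, 9.22 and 9.30 at day 5 and 7.05 and 6.60 at day 10.

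**Figure D4:**
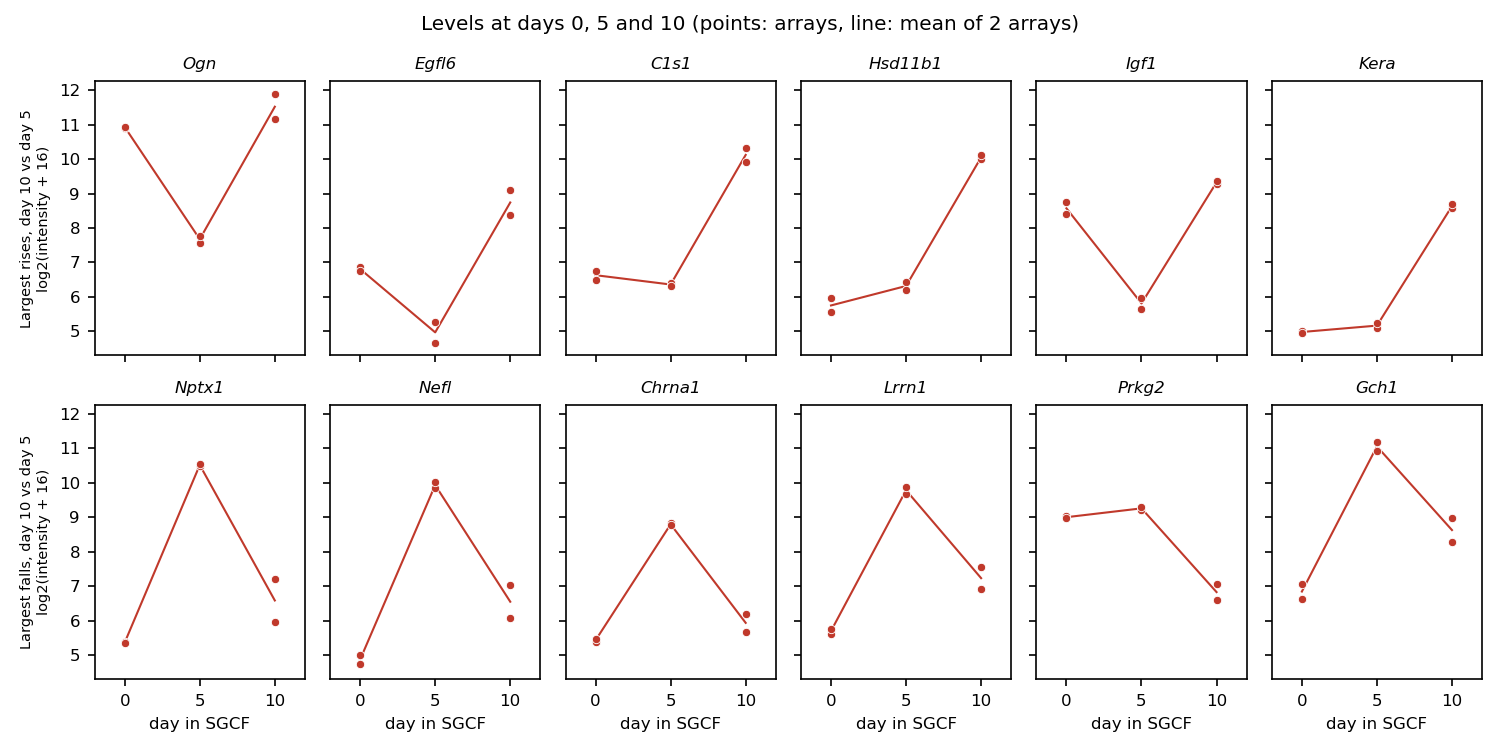
Level (vertical axis, log2(intensity + 16)) at days 0, 5 and 10 in SGCF of the 6 largest rises (top) and 6 largest falls (bottom) from day 5 to day 10; points are arrays and lines join the means of 2. Hsd11b1, C1s1 and Kera stay low to day 5, Ogn, Egfl6 and Igf1 dip at day 5, and Nptx1, Nefl, Chrna1, Lrrn1 and Gch1 peak at day 5.

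The 6TCF arm shows which of these changes differed between the combinations. The test is the change from day 0 to day 10 in SGCF minus that in 6TCF, which uses 8 arrays with none in common between the arms. It called 2740 genes (25.7%), 1309 (12.3%) with a higher and 1431 (13.4%) with a lower change in SGCF. The 6TCF arrays were brighter as deposited (medians 102.4 to 142), so a processing batch and the arm cannot be told apart. The 3′ minus 5′ difference of actin was 1.04 and 1.03 at 6TCF day 10, against 0.30 and 0.39 at day 0. In SGCF it was 0.46 and 0.47 at day 10, against 0.28 and 0.38. For Gapdh it was 0.49 and 0.49 at 6TCF day 10, against 0.34 and 0.44 at day 0. The part of RNA quality in the difference between the arms was not tested. Without normalisation the test called 343 genes higher and 1602 lower. The count also leaned on single arrays, with 1672 genes without 6TCF day 0 replicate 1, 1447 without 6TCF day 0 replicate 2 and 1463 without 6TCF day 10 replicate 1.

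Mitosis genes fell more in SGCF, with 32 of 37 called lower in the difference. The median change was -1.98 in SGCF and -0.40 in 6TCF. Cdk1 differed by -1.73 ± 0.23 (adjusted p = 0.000384) and Top2a by -1.63 ± 0.22 (adjusted p = 0.00038). Of 30 replication genes 25 were lower in the difference, and Mcm5 differed by -1.85 ± 0.22. Macrophage markers were lower in 19 of 21 cases, with medians of -2.65 in SGCF and -0.82 in 6TCF. At day 0 the 12 defining markers already summed to 7323 and 8217 in the SGCF arrays, against 3304 and 3494 in the 6TCF arrays, and the part of these starting levels in the difference was not tested. Lyz1 differed by -3.95 ± 0.33 and Csf1r by -2.69 ± 0.19.

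Fmod changed by -4.02 ± 0.20 in SGCF and by -0.82 in 6TCF, a difference of -3.20 ± 0.29 (adjusted p = 3.06e-05), both limited by its level below the filter at SGCF day 10. Epithelial genes were lower in 9 of 21 cases and higher in none. Krt8 differed by -2.56 ± 0.37, Krt18 by -2.46 ± 0.25 and Epcam by -2.07 ± 0.30, with changes in 6TCF of 2.31, 2.77 and 1.89 beside the SGCF values above. Serine synthesis genes and ATF4 targets were lower in 11 of 35 cases, with Phgdh differing by -2.04 ± 0.18 and Psat1 by -1.77 ± 0.18. Of the 12 largest rises 4 were called in the difference, and of the 12 largest falls 11. They were chosen for their SGCF change, which enters the difference, so these counts are a description. Car3 (5.36 in SGCF and 5.04 in 6TCF) and Lratd1 (5.03 and 4.90) were among the rises not called. Among the largest rises, Dio2 rose more in SGCF, by 1.60 ± 0.24 (adjusted p = 0.000864), a difference of 0.91 without normalisation (adjusted p = 0.058). Bmp2 also rose more in SGCF (1.55 ± 0.36, adjusted p = 0.01). Its day 0 level was 5.73 and 4.75 in the SGCF arrays, against 6.16 and 6.15 in the 6TCF arrays. The part of these starting levels in the difference was not tested. Complement and acute-phase genes had medians of 2.08 in SGCF and 2.12 in 6TCF, with 1 of 14 higher and 3 lower in the difference.

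**Figure D5:**
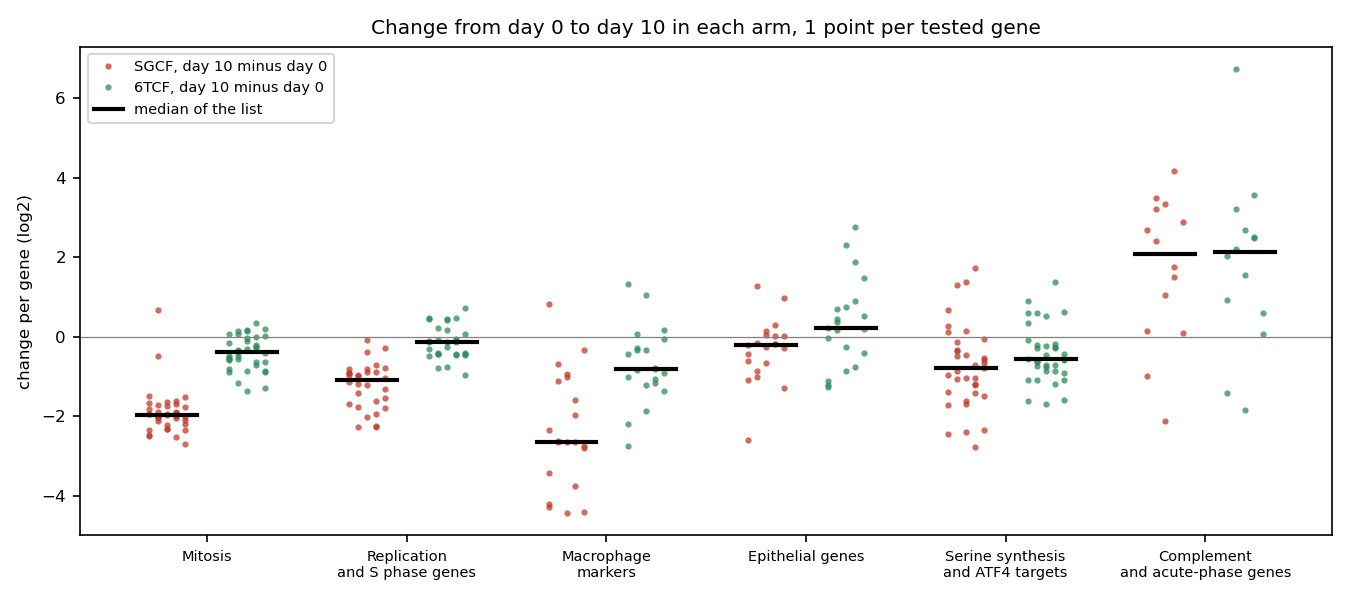
Change from day 0 to day 10 (vertical axis, log2) of each tested gene of 6 lists in SGCF (red, left of each pair) and 6TCF (green, right), with black lines at the list medians. The SGCF points of the mitosis list lie around -1.98 and the 6TCF points around -0.40, while the medians of the complement and acute-phase list are 2.08 in SGCF and 2.12 in 6TCF.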

How the data were processed

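Groups and replicate numbers came from the sample titles. The deposited values are intensity values per probe set on a linear scale, 22690 for every array. RMA, limma and MAS5 appear in the submitters' processing notes with neither roles nor order, so the tool behind the deposited values is unknown here. The 64 control probe sets were left out. Gene names came from the platform annotation, in which 20380 probe sets have 1 symbol, 691 several and 1555 none, and only those with 1 were used, the brightest probe set of each gene. Values were taken as log2(intensity + 16) and quantile normalised over all 12 arrays, and genes were kept where the highest group mean passed the 25th percentile (10674 of 12393). One limma fit (version 3.58.1, R 4.3.3, lmFit and eBayes) over the 6 groups gave changes, standard errors and p-values adjusted over all genes tested by Benjamini-Hochberg. The number of arrays, 2 per group, limits the precision. The members and the 43 gene lists were chosen with earlier results of these data known. Named genes are the 12 largest rises and falls (called, at least 2-fold, arrays not overlapping), key members of each list with up to 2 other called members of largest change, and the 6 largest rises and falls from day 5 to day 10. Promoter windows are RefSeq's (GRCm38.p6). The script was tested on simulated data. Same-numbered arrays of SGCF did not deviate together (correlations of deviations -0.277 to 0.110), so numbers were not taken to pair arrays. Alternatives tried were the scaling, the added constant, the filter, the choice of probe set, a replicate block, fewer arrays in the fit, pooled day 0 arrays, the prior and leaving out each array.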

Additional observations from a re-analysis of the deposited data

Results flagged for a closer look

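For 31 of 41 genes examined (the 24 largest changes and key members of 5 lists) the change from day 0 to day 10 in SGCF minus that in 6TCF passed limma's test over all genes. The 24 were chosen for their SGCF change, which enters this difference, so the count is a description and is not read against the share of all genes. All values here are log2 differences of these 2 changes. Macrophage genes had a lower change in SGCF: Lyz1 by -3.95 ± 0.33 (adjusted p = 1.72e-05), Lyz2 by -3.50, Tyrobp by -3.20, Csf1r by -2.69, C1qb by -2.59, C1qa by -2.55, Adgre1 by -1.89, Ctss by -1.55, Mpeg1 by -1.23 and Cd68 by -0.79. Epithelial genes were also lower in the difference, with Krt8 at -2.56, Krt18 at -2.46 and Epcam at -2.07. For these 3 the SGCF changes of -0.26, 0.31 and -0.18 stood against 2.31, 2.77 and 1.89 in 6TCF. Cell cycle genes differed by -1.85 for Mcm5, -1.73 for Cdk1, -1.63 for Top2a, -1.27 for Rrm2, -0.85 for Pcna and -0.60 for Mcm2. Matrix and cytoskeletal genes differed by -3.20 for Fmod, -1.61 for Cdc42ep3, -1.33 for Ccn5 and -1.17 for C1qtnf3. Amino acid genes differed by -2.04 for Phgdh, -1.77 for Psat1, -0.82 for Chac1 and -0.68 for Asns. Among the largest rises, Dio2 (1.60), Bmp2 (1.55) and Hsd11b1 (0.67) rose more in SGCF, and Mmp3 (-0.80) rose less. The day 0 levels of Bmp2 differed between the arms, as given above.

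Of these, 8 lost their call when a single array was left out. The difference of Hsd11b1 was 0.47 to 0.78 (adjusted p = 0.0696 to 0.158) and that of C1qtnf3 was -1.37 to -0.67 (adjusted p = 0.0578 to 0.147) without any array of the 2 arms but SGCF day 0 replicate 1. For Mcm2 it was -0.66 to -0.48 (adjusted p = 0.0557 to 0.136) without any array but SGCF day 10 replicate 1, and for Mmp3 -0.85 to -0.58 (adjusted p = 0.0528 to 0.0859) without any but SGCF day 0 replicate 1 and SGCF day 10 replicate 1. Asns stood at -0.69 to -0.49 (adjusted p = 0.056 to 0.121) without any 1 of both 6TCF day 0 arrays, 6TCF day 10 replicate 1, SGCF day 0 replicate 1 and SGCF day 10 replicate 1. Ctss stood at -1.56 to -1.25 (adjusted p = 0.0516 to 0.0659) without any 1 of both 6TCF day 0 arrays and SGCF day 10 replicate 1. Cd68 stood at -0.74 to -0.60 (adjusted p = 0.0718 to 0.086) without any 1 of 6TCF day 0 replicate 2, 6TCF day 10 replicate 1 and SGCF day 10 replicate 1. Chac1 stood at -0.79 and -0.67 (adjusted p = 0.0504 and 0.0507) without 6TCF day 10 replicate 1 and SGCF day 10 replicate 1.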

How the results depend on the processing

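All 17 settings that bear on the 10-day comparison kept its count of called genes within 1.5 times of 4144 except a fit of only the 4 arrays compared (2712). Leaving out an array gave 3074 to 4404 genes. From day 5 to day 10 the count of 2318 was 1212 without normalisation, 1489 in a fit of the 6 SGCF arrays, and 1370 to 1634 when an array was left out, with 1463 without SGCF day 5 replicate 1 and 1370 without SGCF day 10 replicate 2. The difference between the arms called 1447 to 3830 genes when an array was left out. The share of higher calls moved by over 10 percentage points in 3 cases. Without normalisation 766 genes were higher and 2683 lower at day 10 (22.2% higher, against 52.9%), and 343 were higher and 1602 lower in the difference between the arms (17.6%, against 47.8%). With median scaling 987 genes were higher and 1461 lower from day 5 to day 10 (40.3%, against 54.1%). With the replicate block the counts were 3866, 2019 and 2338, and the numbers do not pair the arrays by the check given above. Under the block the difference between the arms lost its call for Hsd11b1 (0.67, adjusted p = 0.0623) and Mcm2 (-0.60, adjusted p = 0.0605), and no named change from day 0 to day 10 did.

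Among the 161 named 10-day changes, median scaling changed the calls of Ccl2 and Xist and both smaller fits that of Xist. Quantile normalisation within each arm, 1 added in place of 16, no filter, a filter at the 50th percentile, and the block changed no call or direction of those tested. The directions that turned were all of changes that did not pass the test. Without normalisation Lef1 was at -0.028, Neurod1 at -0.0018 and Krt18 at -0.015. With the day 0 arrays of both arms as 1 group Myod1 was at 0.047, Nkx2-5 at 0.21 and Ccl2 at 0.32. Leaving out an array gave -0.30 to 0.032 for Eln (highest without SGCF day 0 replicate 1), -0.12 to 0.29 for Lef1 (lowest without SGCF day 0 replicate 2), -0.39 to 0.17 for Nkx2-5 (highest without SGCF day 0 replicate 2) and -0.67 to 0.15 for Krt8 (highest without SGCF day 10 replicate 1). The cause of these moves was not tested. The difference of C1qtnf3 between the arms was not called under 5 other settings (-1.17 to -0.59, adjusted p = 0.056 to 0.291), nor was that of Hsd11b1 under 5 besides the block (0.0092 to 0.67, adjusted p = 0.0532 to 0.991), nor that of Mcm2 with 1 added (-0.62, adjusted p = 0.0527) or the mean of its probe sets (-0.43, adjusted p = 0.0815).

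With 2 arrays per group and no untreated culture at day 10, the spread rests on few arrays and the effect of SGCF cannot be told apart from time and medium. Genes near the dim end of the arrays have understated changes. The arrays carry the 430A gene set, so genes without a probe set were not analysed here.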

Other observations

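The wider list of 16 endothelial genes tested had 4 higher and 2 lower, with a median of 0.11. Its largest rise was in Cd34 (2.28) and its largest fall in Flt1, a receptor for vascular endothelial growth factor (-1.36). Of 11 cartilage and bone genes 1 was higher and 2 lower, with the largest fall in Col2a1, the main cartilage collagen (-1.17). Among 14 pluripotency and early embryo genes 1 was higher and 3 lower. Tbx3, a T-box factor, changed by 1.34 and Klf4, a zinc finger factor, by -1.23. Of 10 keratinocyte genes none was higher and 2 were lower. Flt1, Cd34, Col2a1, Tbx3 and Klf4 were chosen after their values were seen, as the extremes of their lists. Y-linked genes and Xist, the noncoding RNA of the inactive X chromosome, were both measured in every array. Of these 4 genes Xist was called higher, at 8.73 and 8.66 at day 10, against 8.46 and 7.89 at day 0 (0.52 ± 0.17, adjusted p = 0.0297 by limma), a call that was lost under 9 alternative settings (0.19 to 0.56, adjusted p = 0.0612 to 0.543), 3 of which left out SGCF day 0 replicate 2 (0.24), SGCF day 10 replicate 1 (0.49) or SGCF day 10 replicate 2 (0.56). Without SGCF day 0 replicate 1 the change was 0.81.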
